A study of Homo sapiens with 12 samples.

Results

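The SR proteins and the heterogeneous nuclear ribonucleoproteins (hnRNPs) are RNA-binding proteins that steer splicing. SR proteins carry domains rich in serine and arginine and mostly promote the use of the exons they bind. The hnRNPs coat nascent transcripts and often oppose the use of nearby splice sites, and several also act in RNA export, stability and translation. Many genes of both families tune their own level through alternative exons that send the transcript to nonsense-mediated decay. Plasma cells and myeloma cells use these factors to process very abundant immunoglobulin transcripts, and HNRNPLL was described as a regulator of splicing during B cell differentiation.

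A set of 32 genes was followed here, namely 10 SR protein genes, the 2 related TRA2 genes and 20 hnRNP genes. They were picked by symbol from the 59276 features of the deposited table, and all 32 were among the 11939 features that passed a filter on low values, which asked for 1 TPM or more in 3 or more of the libraries. TPM is a share of the sequenced transcripts, corrected for transcript length and scaled to the same total in every library. The libraries came from MM1S, an established human multiple myeloma line, and each of 4 groups had 3 libraries. Cells of the treated groups were kept for 2 days (libraries H4 to H6), 3 days (H7 to H9) or 5 days (H10 to H12) in 10 µM NGI-1, an inhibitor of the oligosaccharyltransferase complex and so of N-glycosylation of proteins in the endoplasmic reticulum. Libraries H1 to H3 carry the label day 0 and are called untreated here, although their labels name NGI-1 as the treatment too. Untreated cells kept for the same number of days were not among the libraries, so time in culture and time in NGI-1 cannot be told apart. All libraries are of 1 line, and separate cultures are not stated, so p-values measure the spread between these libraries, which may be technical.

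Plasma cell identity was checked first. All 10 plasma cell markers reached 1 TPM, and their sum was 12149 to 14301 TPM in untreated libraries, 25602 to 28461 at day 3 and 19971 to 21264 at day 5. The single markers did not follow the sum at day 5. On the deposited scale 6 of the 10 were lower and 2 higher (69.8% and 7.73% of all features). Their median log2 fold change was -1.08, against -0.99 for all features. With the second scaling described below 2 were lower and 4 higher (26.9% and 27.5% of all features), with a median of 0.14. The 14 markers of B, T, myeloid, stromal and erythroid cells summed to 3.40 to 8.01 TPM in any library, 2 of them reached 1 TPM in some library, and 2 were listed at 0 in all. Only 1 of the 14, the T cell marker CD3E, passed the filter. By the rule given below it was called higher at day 2 (log2 fold change 0.86) and day 3 (0.75) and not at day 5 (0.32). With the second scaling described below it was called higher on all 3 days. TPM keeps no counts, so the depth behind each value and its counting error are unknown. Ribosomal protein transcripts took 28.5% to 29.6% of the TPM in untreated libraries and 47.8% to 49.4% at day 5. TPM adds up to the same total in each library, and the part of this shift in the results below was not tested. A second scaling is therefore given beside the deposited scale, called rescaled. In it each library was divided by a factor that set the median log2 ratio over 5433 well expressed features (mean TPM 10 or more) to the same value. In bulk RNA, fewer cells of a type and less RNA per cell cannot be told apart.

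The upstream bases of 4 genes are shown because these genes mark the ends of the responses described below. HNRNPH1 and HNRNPH2 are close relatives whose deposited values diverged, although the level of HNRNPH2 is uncertain, as described below. HNRNPA2B1 had the lowest day 5 change, and the treated days of HNRNPC overlapped one another. Each run holds the 250 bases before the annotated start, 5′ to 3′ on the strand of the gene, from RefSeq on GRCh38.p14, and capitals mark CACGTG (the E-box), CCAAT (the CCAAT box) and TATAAA (the TATA box) on either strand. The windows lie at chr5:179634785-179635034 on the minus strand (HNRNPH1), chrX:101407972-101408221 on the plus strand (HNRNPH2), chr7:26200747-26200996 on the minus strand (HNRNPA2B1) and chr14:21269443-21269692 on the minus strand (HNRNPC).
HNRNPH1: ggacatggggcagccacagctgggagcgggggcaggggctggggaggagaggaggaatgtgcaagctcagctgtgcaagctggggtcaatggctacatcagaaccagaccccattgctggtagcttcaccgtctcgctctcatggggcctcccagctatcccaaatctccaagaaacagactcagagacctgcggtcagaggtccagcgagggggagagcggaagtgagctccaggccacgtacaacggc
HNRNPH2: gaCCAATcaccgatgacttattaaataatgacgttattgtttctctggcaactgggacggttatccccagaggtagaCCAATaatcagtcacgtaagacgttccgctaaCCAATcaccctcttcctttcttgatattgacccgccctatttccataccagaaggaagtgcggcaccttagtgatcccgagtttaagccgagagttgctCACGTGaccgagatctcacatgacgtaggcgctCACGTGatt
HNRNPA2B1: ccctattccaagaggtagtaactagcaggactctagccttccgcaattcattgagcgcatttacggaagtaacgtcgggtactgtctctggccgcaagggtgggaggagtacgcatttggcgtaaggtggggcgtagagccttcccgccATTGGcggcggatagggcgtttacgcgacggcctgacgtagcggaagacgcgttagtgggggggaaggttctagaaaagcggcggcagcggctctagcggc
HNRNPC: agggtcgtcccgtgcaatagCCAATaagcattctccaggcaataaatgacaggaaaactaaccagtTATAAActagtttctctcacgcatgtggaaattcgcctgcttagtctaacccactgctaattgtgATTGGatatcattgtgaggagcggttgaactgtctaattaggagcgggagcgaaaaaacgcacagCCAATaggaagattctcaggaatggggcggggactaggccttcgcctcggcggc

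The window of HNRNPH1 held none of the 3 motifs and 8 CG dinucleotides. That of HNRNPH2 held 2 E-boxes, 3 CCAAT boxes and 15 CG dinucleotides. The HNRNPA2B1 window had 1 CCAAT box and 24 CG dinucleotides, and the HNRNPC window had 3 CCAAT boxes, 1 TATA box and 12 CG dinucleotides. RefSeq promoter windows that reach past the start were at hand for 29 of the 32 genes, all but SRSF2, TRA2A and HNRNPA1. CACGTG occurred in 7 of the 29 (24.1%), which were HNRNPA3, HNRNPD, HNRNPDL, HNRNPH2, HNRNPH3, HNRNPM and HNRNPUL1, against 10.8% of 8941 windows of tested genes and 7.43% of all 27305 windows. CCAAT occurred in 14 (48.3%, against 37.9% of tested genes), and TATAAA in 5 (17.2%, against 5.07%). The GC box GGGCGG was in 20 windows (68.97%, against 71.6%), the ETS motif CCGGAAG in 5 (17.2%, against 21.5%), and the cAMP response element TGACGTCA in 0. These shares describe letters in a window and carry no test.

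Annotated decay transcripts were common among the genes. In GENCODE 29, all 12 SR and TRA2 genes and 13 of 20 hnRNP genes had at least 1 transcript of the nonsense-mediated decay type, 25 of 32 in all (78.1%), against 45.5% of 10441 tested protein-coding genes. A retained-intron transcript was listed for 24 of 32 (75.0%, against 59.6%). The 32 genes also had more annotated transcripts, with a median of 11.5 against 8 for the tested protein-coding genes. The part of that difference in these shares was not tested. SRSF7 had 6 decay transcripts among 12, HNRNPU 9 among 31 and HNRNPH1 4 among 50, whereas HNRNPH2 and HNRNPA0 each had 1 transcript and it was coding. The deposited values are per gene, so decay and coding transcripts were not separated here.

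Before treatment the mean levels spanned 22.7 to 2202 TPM. HNRNPA1, the core hnRNP particle protein that antagonizes SR proteins at many exons, was the most abundant at 2202 ± 58.2 TPM (SD, n = 3). HNRNPA2B1 followed at 919 ± 45.2, SRSF3 at 685 ± 45.4 and HNRNPC at 603 ± 14.8 TPM, and these 4 did not overlap between libraries. HNRNPK (511 ± 19.4 TPM) and HNRNPH1 (507 ± 13.1 TPM) were next and overlapped. The lowest were SRSF4 (37.9 ± 1.04 TPM), HNRNPH2 (36.4 ± 1.52 TPM) and HNRNPA0 (22.7 ± 0.753 TPM). Of the 31 pairs of neighbours in the order, 16 overlapped between libraries and 15 did not.

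**Figure D1:**
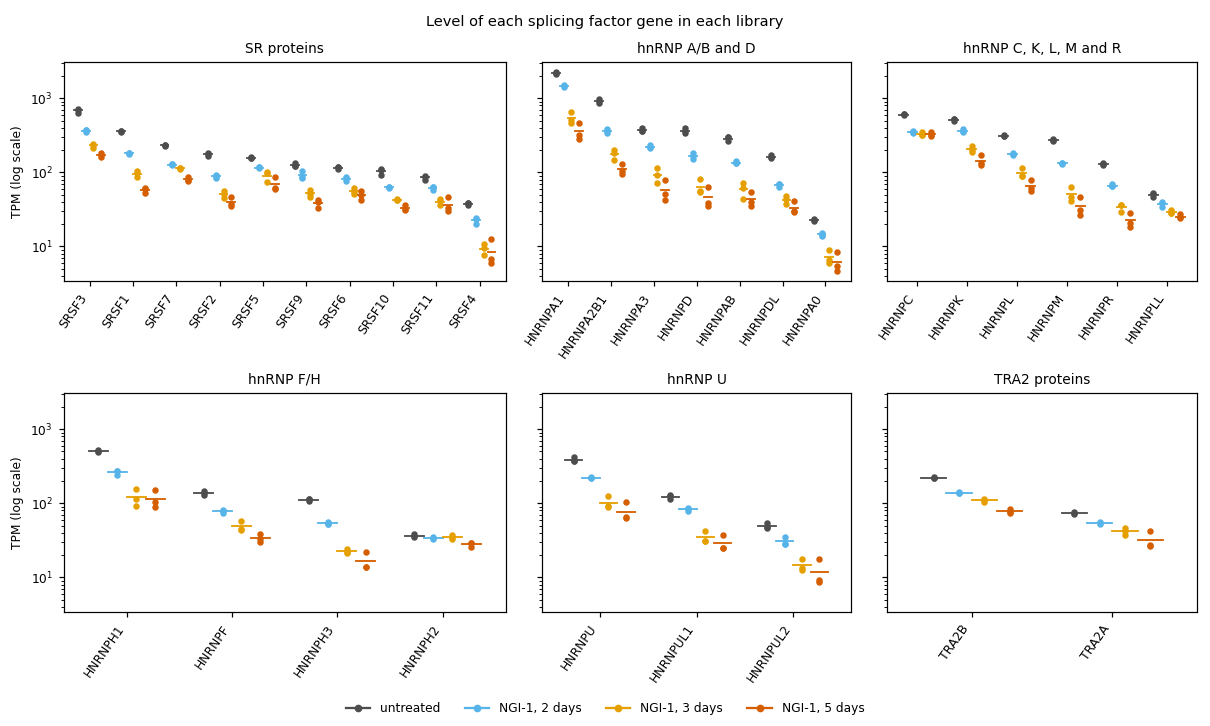
Level of each of the 32 genes in each library, in TPM on a log axis, with a panel for each class, a point for each library and a bar for the mean of 3 libraries. Treated points lie below the untreated points for nearly all genes, HNRNPC stays between 314 and 361 TPM on all 3 treated days, and HNRNPH2 stays between 25.5 and 37.1 TPM.

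Together the 32 genes made up 0.993% ± 0.0226 of all TPM in untreated libraries, then 0.571% ± 0.00188, 0.304% ± 0.0364 and 0.228% ± 0.0381 on days 2, 3 and 5 (SD over 3 libraries each). Every treated library lay below every untreated library. A two-sided exact permutation test of 9 treated against 3 untreated libraries gave p = 0.00455 for this share, the smallest p that 220 choices allow, and 0.012 after Benjamini-Hochberg adjustment over 37 shares and sums computed in the same way. Within the set most of the change in make-up came after day 2, when the hnRNP A/B and D class still held 42.6% of the summed TPM. That class held 43.6% ± 0.219 of the summed TPM in untreated libraries and 28.4% ± 2.36 at day 5, while the class of HNRNPC, K, L, LL, M and R went from 18.9% ± 0.178 to 27.4% ± 1.37 and the SR proteins from 20.9% ± 0.557 to 25.8% ± 1.71 (SD, n = 3 each). HNRNPC alone went from 6.07% ± 0.172 to 14.6% ± 1.502 of the sum, about the rise of its whole class. Its share was 6.14% at day 2, and over all 9 treated libraries the adjusted p was 0.133 (exact permutation). The joint share of the SR and TRA2 genes did not pass either (adjusted p = 0.0512, exact permutation). Among the remaining classes the TRA2 share rose (2.98% untreated, 4.85% by day 5). The hnRNP F/H share (7.98%, then 8.41%) and the hnRNP U share (5.63%, then 5.12%) moved little. These shares within the set do not depend on how libraries are scaled.

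**Figure D2:**
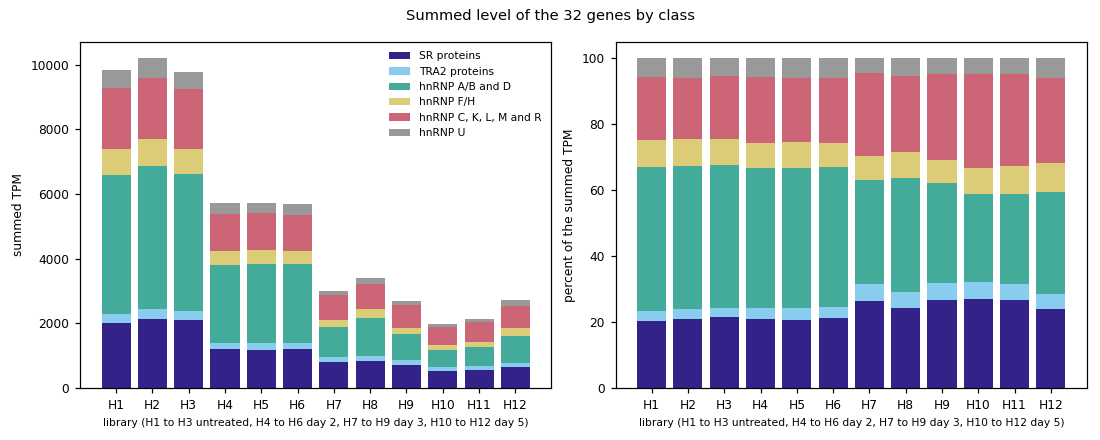
Summed TPM of the 32 genes in each library (left) and the percent each class contributes (right), as stacked bars. The sum falls from 9934 TPM on average in untreated libraries to 2276 TPM at day 5, and the share of the hnRNP A/B and D class falls from 43.6% to 28.4%.

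Each NGI-1 day was compared with the untreated libraries by limma on log2(TPM + 1), in a fit of all 12 libraries, and a gene was called at a Benjamini-Hochberg adjusted p under 0.05 over all 11939 features if its log2 fold change also exceeded 0.5 in either direction. At day 2, 24 of the 32 genes were lower and 0 higher, where 23.2% of all features tested were lower and 8.04% higher. At day 3, 31 were lower and 0 higher (61.5% and 7.59% of all features). Day 5 had 31 lower and 0 higher (69.8% and 7.73%). At days 3 and 5 most of the transcriptome was thus called lower with these genes. Among the 4723 features whose mean TPM over all libraries was at or above that of the lowest of the 32 genes, 29.3%, 66.3% and 74.5% were lower on the 3 days. All 3 libraries of a day lay below all untreated libraries for 32, 31 and 32 genes, against 44.1%, 70.5% and 75.2% of all features.

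The size of the change gave more contrast than the count. The median log2 fold change of the 32 genes was -0.77 at day 2, -1.69 at day 3 and -2.05 at day 5. That of all features was -0.18, -0.73 and -0.99. For the 4723 features at or above the level of the lowest of the 32 genes it was -0.27, -0.86 and -1.22. At day 5, 10.7% of all features had a change below the median of the 32 genes. After rescaling, 17, 20 and 21 genes were lower and 0, 1 and 1 higher on the 3 days, where 11.4%, 24.2% and 26.9% of all features were lower and 12.9%, 23.9% and 27.5% higher. At day 5 the rescaled counts held 17 of 20 hnRNP genes and 4 of 12 SR and TRA2 genes, a difference that was not tested, and SRSF9 at -0.50 just missed the size threshold. On the deposited scale 24 genes were lower on all 3 days (22.6% of all features), and 15 were after rescaling (9.64% of all features).

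**Figure D3:**
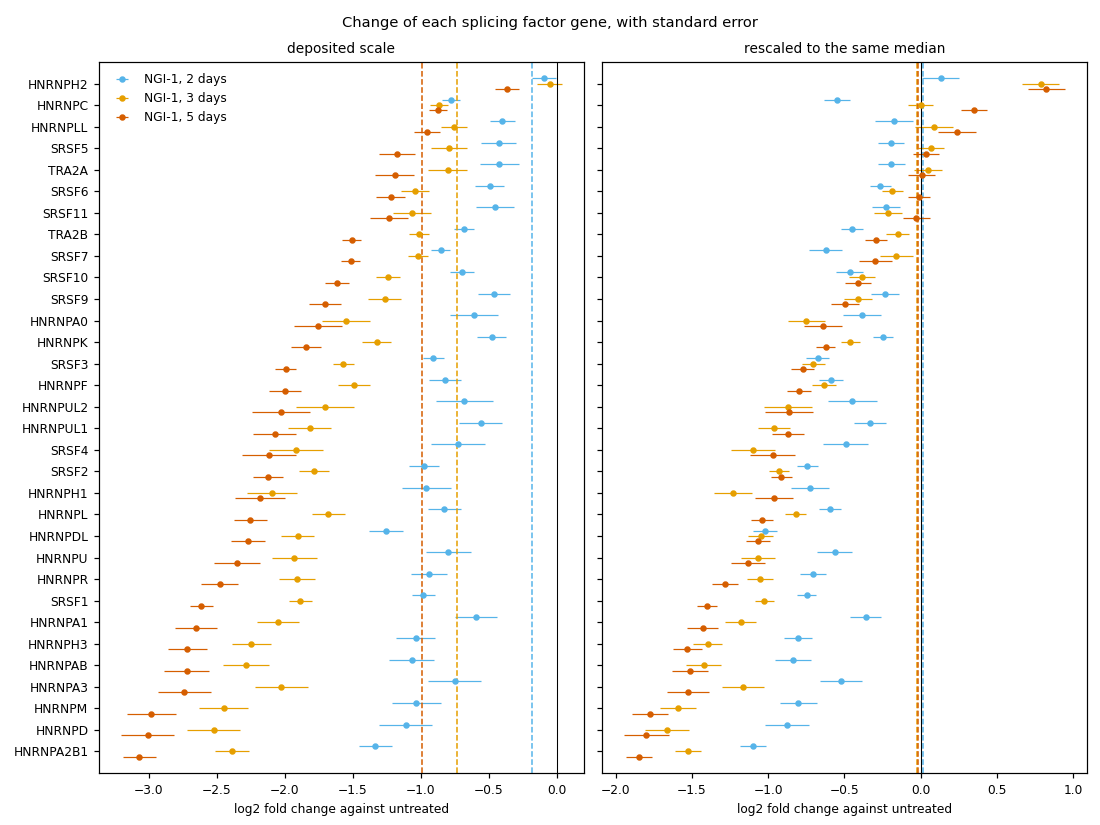
Log2 fold change against untreated at day 2, 3 and 5 for each of the 32 genes, with the standard error, on the deposited scale (left) and after rescaling (right), ordered by the day 5 value. Dashed lines mark the median of all 11939 features on each day, and 31 genes were called lower at day 5 on the deposited scale and 21 after rescaling.

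Among the 10 SR protein genes, 6 were lower at day 2 and all 10 at days 3 and 5 (23.2%, 61.5% and 69.8% of all features). The median log2 fold change of the class was -1.66 at day 5, against -0.99 for all features. Of the 10, SRSF1, the prototype SR protein that binds purine-rich exonic enhancers, changed most at days 2 and 5. SRSF1 had 361, 366 and 346 TPM in the untreated libraries, 179, 183 and 180.0 on day 2, 96.5, 105 and 87.3 on day 3, and 52.1, 59.0 and 62.0 on day 5. The 4 groups did not overlap and fell in the order of the days. Its log2 fold change was -0.98, -1.89 and -2.61 ± 0.08 (SE) on the 3 days, with limma adjusted p of 9.65e-07, 3.04e-10 and 7.78e-12, and after rescaling -1.40 at day 5 (adjusted p = 8.85e-10, limma).

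SRSF5, first described as an insulin-induced protein of liver cells, changed least in the class. Its values were 156, 159 and 154 TPM in the untreated libraries, 113, 118 and 117 on day 2, 96.6, 99.9 and 75.2 on day 3, and 62.2, 60.3 and 86.2 on day 5. Untreated libraries were highest, while H12 of day 5 lay above H9 of day 3. The log2 fold change at day 5 was -1.18 ± 0.13 (SE, limma adjusted p = 1.21e-06), and it was 0.04 after rescaling (adjusted p = 0.705, limma), so SRSF5 was lower on the deposited scale and lay at the median change of all features when rescaled.

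SRSF4 and SRSF6 are closely related SR proteins with long arginine-serine domains. SRSF4 had 38.3, 38.7 and 36.7 TPM in the untreated libraries, 23.7, 24.2 and 19.99 on day 2, 9.55, 10.8 and 7.73 on day 3, and 5.93, 6.81 and 12.4 on day 5. SRSF6 had 119, 111 and 117 TPM in the untreated libraries, 75.5, 86.5 and 84.2 on day 2, 55.1, 60.6 and 51.7 on day 3, and 42.3, 49.9 and 56.2 on day 5. For both genes treated and untreated libraries did not overlap, and H12 was the highest day 5 library and overlapped day 3. The day 5 log2 fold change was -2.11 ± 0.20 for SRSF4 and -1.22 ± 0.11 for SRSF6 (SE), both called, and after rescaling -0.97 (called) and -0.01 (not called).

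SRSF9, a short SR protein with a brief arginine-serine tail, had 122, 123 and 134 TPM in the untreated libraries, 104, 87.7 and 83.0 on day 2, 51.7, 58.6 and 45.9 on day 3, and 32.9, 39.8 and 42.0 on day 5. The 4 groups did not overlap. Its day 2 change of -0.46 missed the size threshold (adjusted p = 0.00616, limma) and its day 5 change was -1.70. Of the remaining SR genes, SRSF2, which acts at exonic enhancers and in the nucleus, was at -2.12, SRSF3, the smallest of the family and linked to export, at -1.996, SRSF10, known as a splicing repressor when dephosphorylated, at -1.62, SRSF7, a zinc-knuckle SR protein, at -1.52, and SRSF11 at -1.23 on the log2 scale at day 5, and all 5 were called. After rescaling SRSF1, SRSF2, SRSF3 and SRSF4 were still lower at day 5, and the other 6 SR genes were not called, with values between -0.50 and 0.04.

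TRA2A and TRA2B are SR-like activators that bind GAA-rich exonic elements. TRA2A had 70.8, 76.5 and 73.5 TPM in the untreated libraries, 53.1, 56.5 and 54.4 on day 2, 41.9, 46.2 and 37.5 on day 3, and 26.8, 27.5 and 42.7 on day 5. TRA2B had 228, 221 and 217 TPM in the untreated libraries, 139.9, 138 and 136 on day 2, 115, 111 and 103 on day 3, and 75.1, 74.7 and 82.6 on day 5. TRA2B was lower on each day than on the one before, without overlap, while H12 placed TRA2A of day 5 within the range of day 3. The day 5 log2 fold change was -1.19 ± 0.14 for TRA2A and -1.51 ± 0.07 for TRA2B (SE), both called, and 0.01 and -0.29 after rescaling, neither called.

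The hnRNP A/B and D class fell furthest, with 7 of 7 genes lower on each day (23.2%, 61.5% and 69.8% of all features). Its median log2 fold change was -2.72 at day 5. After rescaling 5 of 7 were lower at day 2 and 7 of 7 at days 3 and 5 (11.4%, 24.2% and 26.9% of all features). The rescaled median was -1.51 at day 5. HNRNPA2B1, which packages nascent RNA and sorts RNAs for transport, had the largest fall of all 32 genes at days 2 and 5, with HNRNPD at -3.01 close to it at day 5. HNRNPA2B1 had 875, 965 and 917 TPM in the untreated libraries, 384, 342 and 366 on day 2, 185, 198 and 145 on day 3, and 94.8, 104 and 130.0 on day 5. No 2 groups overlapped. Its log2 fold change was -1.33 at day 2, -2.39 at day 3 and -3.07 ± 0.12 (SE, limma adjusted p = 6.19e-11) at day 5, which is 8.39-fold lower on the TPM + 1 scale, and -1.85 after rescaling.

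HNRNPA1 had 2266, 2187 and 2152 TPM in the untreated libraries, 1397, 1529 and 1456 on day 2, 501, 657 and 457 on day 3, and 285, 321 and 464 on day 5. By mean it was the most abundant of the 32 genes in every group, although HNRNPC was above it in H10 and H11 of day 5, and only days 3 and 5 overlapped. The day 2 change of -0.59 was the smallest of its class, and -2.65 ± 0.15 (SE, limma adjusted p = 2.1e-09) was reached at day 5, so that 22.3% of the day 5 change was present at day 2, against a median of 37.3% over the 32 genes. The summed mean TPM of HNRNPA1 pseudogene copies was 1.02% of the mean of the gene in untreated libraries, and how reads shared with near-identical copies were divided is not stated.

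HNRNPA0, an intronless relative and the least abundant of the set, had 21.9, 23.4 and 22.9 TPM in the untreated libraries, 15.4, 14.3 and 14.0 on day 2, 6.49, 9.08 and 5.99 on day 3, and 4.67, 5.43 and 8.48 on day 5. Days 3 and 5 overlapped and the other groups did not. Its day 5 log2 fold change of -1.76 ± 0.18 (SE, limma adjusted p = 4.77e-07) was the smallest of the class, and the added 1 in log2(TPM + 1) shrinks the change of a gene at this level. The others in the class were HNRNPD, the AU-rich element binding protein also called AUF1 (-3.01), HNRNPA3 (-2.74), HNRNPAB (-2.72) and HNRNPDL, a D-like protein (-2.27), all lower at day 5 on both scales.

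Of the F/H class, which binds G-rich sequence, HNRNPH1, HNRNPH3 and HNRNPF were lower on all 3 days under both scalings. Of all features, 22.6% were lower on all 3 days on the deposited scale and 9.64% after rescaling. HNRNPH2 was called lower on no day. HNRNPH3 had 106, 115 and 113 TPM in the untreated libraries, 53.1, 55.9 and 52.1 on day 2, 22.1, 24.5 and 21.5 on day 3, and 13.7, 13.7 and 22.1 on day 5. H12 alone of day 5 reached the day 3 range. Its day 5 change was -2.72 ± 0.15 (SE, limma adjusted p = 9.39e-10), and that of HNRNPF was -2.001.

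HNRNPH1 had 507, 520.3 and 494 TPM in the untreated libraries, 268, 271 and 243 on day 2, 115, 154 and 92.2 on day 3, and 88.3, 103 and 150.1 on day 5. HNRNPH2 had 34.9, 37.9 and 36.3 TPM in the untreated libraries, 32.9, 34.5 and 34.6 on day 2, 37.1, 34.6 and 33.2 on day 3, and 29.4, 29.2 and 25.5 on day 5. HNRNPH1 separated untreated, day 2 and later libraries, whereas HNRNPH2 at day 3 overlapped the untreated libraries. The day 5 log2 fold change was -2.18 ± 0.18 for HNRNPH1 (SE, limma adjusted p = 6.87e-08) and -0.37 ± 0.09 for HNRNPH2 (SE, adjusted p = 0.00161), below the size threshold. After rescaling HNRNPH2 changed sides and was called higher, at 0.79 at day 3 and 0.82 at day 5 (limma adjusted p = 8.3e-05 and 4.41e-05), the only one of the 32 called higher against untreated on any day and either scale.

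HNRNPH2 lies on the X chromosome at positions 101408295 to 101414133 of GRCh38, plus strand, and the table also lists RPL36A-HNRNPH2, a readthrough feature that runs from the ribosomal protein gene RPL36A into it. By GENCODE 29 the readthrough shares 362 of the 2223 exon bases of HNRNPH2 (16.3%) and 333 exon bases of RPL36A. The readthrough feature had 112, 105 and 129 TPM in the untreated libraries, 153, 188 and 150.5 on day 2, 213, 275 and 238 on day 3, and 286, 358 and 329 on day 5. It was higher on all 3 days, by 0.50, 1.06 and 1.48 on the log2 scale, and RPL36A itself was at 0.29 (not called), 1.1 and 1.45. How reads in shared exons were divided between these features is not stated, so the HNRNPH2 level is uncertain, and the part of the overlap in its small change was not tested. No such feature was listed for HNRNPH1.

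**Figure D4:**
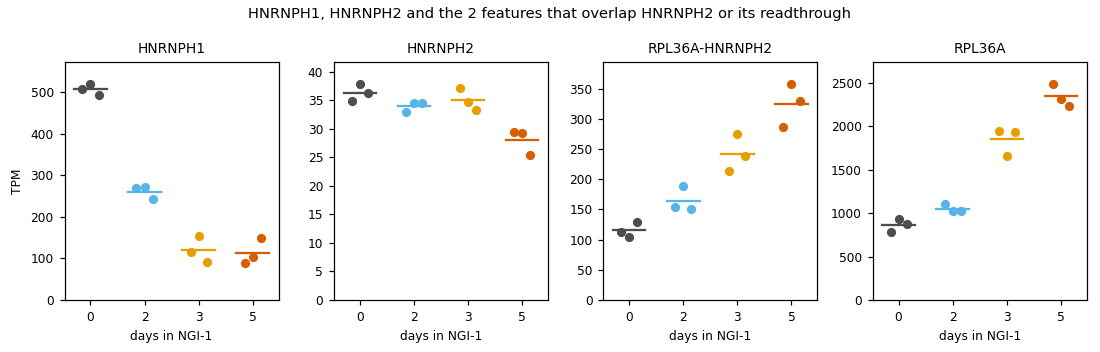
TPM of HNRNPH1, HNRNPH2, the readthrough feature RPL36A-HNRNPH2 and RPL36A in each library against days in NGI-1, each panel from 0 on its own axis, with bars for the mean of 3 libraries. HNRNPH1 falls from a mean of 507 to 114 TPM, HNRNPH2 goes from 36.4 to 28.03 TPM, and the readthrough feature rises from 115 to 324 TPM.

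In the class of HNRNPC, K, L, LL, M and R, 4 of 6 genes were lower at day 2 and all 6 at days 3 and 5. Of all features, 23.2%, 61.5% and 69.8% were lower on the 3 days. HNRNPM, which binds GU-rich introns, had 274, 283 and 267 TPM in the untreated libraries, 131, 135 and 135 on day 2, 46.8, 63.3 and 40.7 on day 3, and 26.2, 31.4 and 47.1 on day 5. Days 3 and 5 overlapped through H12. The log2 fold change of HNRNPM at day 5 was -2.98 ± 0.18 (SE, limma adjusted p = 2.98e-09) and -1.77 after rescaling.

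HNRNPC, which binds uridine tracts and measures transcript length for export, followed another course. It had 586, 609.9 and 614 TPM in the untreated libraries, 361, 337 and 354 on day 2, 348, 320.5 and 324 on day 3, and 314, 323 and 350.1 on day 5. All treated libraries lay below the untreated ones, and the 3 treated days overlapped. Its change was -0.78, -0.87 and -0.87 ± 0.07 (SE, limma adjusted p of 7.95e-07, 6.08e-08 and 2.72e-08), so 89.5% of the day 5 change was present at day 2. The difference between day 5 and day 2 was -0.09 (adjusted p = 0.207, limma), where 30 of the 32 genes were lower at day 5 than at day 2 (69.8% of all features). After rescaling HNRNPC was at -0.55 at day 2 (called), 0.00 at day 3 and 0.35 at day 5 (adjusted p = 0.00204, below the size threshold), so its direction against untreated at day 5 depends on the scaling. By mean level it stood at rank 4 of the 32 genes in untreated libraries and at rank 2, behind HNRNPA1, at day 5.

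HNRNPL and HNRNPLL are paralogs that bind CA-rich elements. HNRNPL had 319, 313 and 307 TPM in the untreated libraries, 183, 176 and 169 on day 2, 90.4, 114 and 87.9 on day 3, and 56.2, 61.1 and 79.3 on day 5. HNRNPLL had 46.7, 50.97 and 52.1 TPM in the untreated libraries, 38.8, 34.6 and 39.3 on day 2, 31.2, 27.98 and 28.3 on day 3, and 27.1, 24.9 and 23.8 on day 5. Neither gene overlapped between any 2 groups. The day 5 change was -2.25 ± 0.12 for HNRNPL and -0.95 ± 0.09 for HNRNPLL (SE), both called, and -1.04 (called) and 0.24 (not called) after rescaling. HNRNPR was at -2.48 and HNRNPK, the poly-C binding protein, at -1.84 at day 5, and both were lower on both scales.

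HNRNPU, also called scaffold attachment factor A, binds chromatin as well as RNA. On the deposited scale it and its 2 relatives were lower on all 3 days (22.6% of all features). After rescaling only HNRNPU was lower at day 2, at -0.56, and all 3 genes were at days 3 and 5 (11.4%, 24.2% and 26.9% of all features). HNRNPU had 377, 419 and 366 TPM in the untreated libraries, 219.8, 222 and 224 on day 2, 92.6, 125 and 88.2 on day 3, and 62.9, 64.4 and 104 on day 5. HNRNPUL2 had 48.2, 53.8 and 45.8 TPM in the untreated libraries, 34.7, 28.2 and 28.5 on day 2, 13.3, 17.9 and 12.4 on day 3, and 8.67, 9.28 and 17.7 on day 5. For both, only days 3 and 5 overlapped, with H12 the highest of day 5. The day 5 change was -2.35 ± 0.17 for HNRNPU, -2.03 ± 0.21 for HNRNPUL2 (SE) and -2.07 for HNRNPUL1, all called. HNRNPUL2 shares 44.1% of its exon bases with a readthrough feature, HNRNPUL2-BSCL2, which went from 28.5 to 7.43 TPM on average between untreated and day 5, and its day 2 call was lost when H2, H5 or H6 was left out (limma adjusted p from 0.0572 to 0.064).

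On the deposited scale the mean of 31 of 32 genes was lower at each step than at the one before, the exception being HNRNPH2. The share of all features with such a course was not counted, so whether it is particular to these genes is not known. The median log2 fold change of all features against untreated fell too, at -0.18, -0.73 and -0.99 on days 2, 3 and 5. After rescaling, 22 of the 32 genes had a log2 fold change below 0 from day 2 to day 3, and 21 from day 3 to day 5. The median of all features was -0.07 and 0.02 at these steps, and their share below 0 was not counted. At the median of the 32 genes on the deposited scale, 37.3% of the day 5 change was present at day 2 and 78.9% at day 3. From day 2 to day 3, 25 genes were lower (55.5% of all features) and 0 higher (3.22%). From day 3 to day 5, 9 were lower (13.1%) and 0 higher (0.670%). Those 9 were SRSF1, HNRNPA1, HNRNPA2B1, HNRNPA3, HNRNPF, HNRNPK, HNRNPL, HNRNPM and HNRNPR. That last count rested on single libraries: it was 3 without H8 or H10, 5 without H11, 14 without H9 and 19 without H12, and 0 after rescaling. From day 2 to day 5, 30 genes fell and 0 rose, against 69.8% and 4.35% of all features. The rescaled steps had 10 lower and 2 higher from day 2 to day 3 (13.6% and 14.3% of all features), 0 lower and 0 higher from day 3 to day 5 (2.03% and 4.43%), and 11 lower and 2 higher from day 2 to day 5 (18.1% and 19.0%). H12 was the highest day 5 library for 29 of 32 genes and H9 the lowest day 3 library for 28, while H8 was the highest day 3 library for 26.

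A ratio of 2 TPM values within a library is free of the library scaling, but the tested log2 ratios are differences of log2(TPM + 1) and move slightly with it. In this form 12 pairs of related genes were compared by a two-sided exact permutation test with 220 possible choices of 3 libraries among 12, with Benjamini-Hochberg adjustment over the pairs. Values are differences in mean log2 ratio, 9 treated minus 3 untreated libraries. The ratio changed in 6 pairs, lower in 4 and higher in 2, and in 4 pairs after rescaling, where SRSF4 over SRSF6 and TRA2A over TRA2B were no longer called (adjusted p = 0.0545 for each, exact permutation). HNRNPH1 over HNRNPH2 changed most, by -1.57 (adjusted p = 0.018, exact permutation). The ratio of TPM was 14.5, 13.7 and 13.6 in the untreated libraries, 8.16, 7.85 and 7.02 on day 2, 3.11, 4.45 and 2.77 on day 3, and 3.00, 3.53 and 5.90 on day 5. Every treated library was below every untreated one, and the doubt over the HNRNPH2 level applies here as well.

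HNRNPL over HNRNPLL changed by -0.88 (adjusted p = 0.033, exact permutation), from a mean TPM ratio of 6.29 ± 0.492 in untreated libraries to 2.62 ± 0.642 at day 5 (SD, n = 3). SRSF1 over SRSF9 changed by -0.68 (adjusted p = 0.018, exact permutation), from 2.84 ± 0.217 to 1.51 ± 0.0615 at day 5. For both pairs treated and untreated libraries did not overlap. SRSF4 over SRSF6 changed by -0.67 (adjusted p = 0.033, exact permutation), from 0.327 ± 0.0180 to 0.166 ± 0.0476, and H4 of day 2 overlapped the untreated libraries.

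HNRNPA1 over HNRNPA2B1 changed by 0.50 (adjusted p = 0.018, exact permutation), and here day 2 was highest, at 4.03 ± 0.418, against 2.40 ± 0.169 in untreated libraries and 3.22 ± 0.301 at day 5 (SD, n = 3). TRA2A over TRA2B changed by 0.26 (adjusted p = 0.036, exact permutation), from 0.331 ± 0.0183 to 0.414 ± 0.0889 at day 5, with no overlap. The adjusted p of the other 6 pairs lay between 0.078 and 0.909, which does not show that they moved alike. SRSF3 over SRSF7 was nearest, at -0.36, and went from 2.97 ± 0.154 in untreated libraries to 2.15 ± 0.260 at day 5. HNRNPD over HNRNPDL went from 2.23 ± 0.123 to 2.48 ± 0.169 at day 2 and 1.35 ± 0.191 at day 5 (SD, n = 3), so days that lay on opposite sides of the untreated value were pooled in its test.

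**Figure D5:**
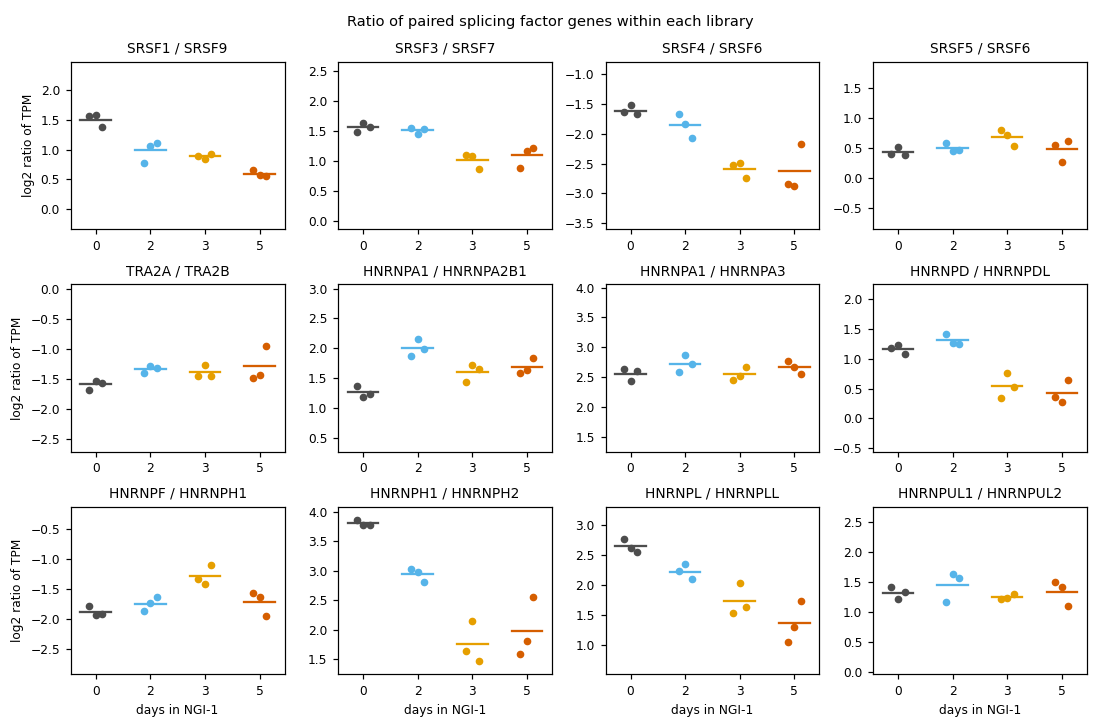
Log2 ratio of TPM for 12 pairs of related genes in each library against days in NGI-1, with bars for the mean of 3 libraries; panels have their own axes of at least 2.8 log2 units. HNRNPH1 over HNRNPH2 drops from a TPM ratio of 14.0 on average in untreated libraries to 4.14 at day 5, and HNRNPA1 over HNRNPA2B1 is highest at day 2, at 4.03.

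Genes that work with these factors were described from 4 lists. Of 10 kinases and importers of SR proteins, 4 were lower and 2 higher at day 2, and 8 were lower and 2 higher at day 5. After rescaling 3 were lower and 2 higher at day 5, and the median of this list was -0.09, against -0.02 for all features. The 2 that rose were CLK1 and CLK4, kinases that phosphorylate SR proteins in the nucleus. CLK1 had a mean of 28.9 TPM in untreated libraries and 116 at day 5, a log2 fold change of 0.59, 0.97 and 1.96 on the 3 days, and CLK4 was at 0.61, 0.57 and 0.93. SRPK1, the main cytoplasmic SR kinase, was at -2.31 and TNPO3, the SR protein importer, at -2.40 at day 5. The directions of these 4 genes were the same after rescaling.

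Of 40 tested further splicing regulators, 24 were lower at day 2 and 36 at day 5 and 0 were higher, with a median log2 fold change of -1.81 at day 5. PNN, a protein of nuclear speckles, fell furthest at -2.66, and MATR3, a nuclear matrix protein, was at 0.03. After rescaling 25 were lower and 4 higher at day 5. Of 40 snRNP and core spliceosome genes, 24 were lower at day 2 and 31 at day 5, and 0 higher, with SF3B3 at -2.78 and SF3B6 at 0.36, both subunits of the SF3B complex of the U2 snRNP. Rescaled, 25 of these were lower and 10 higher at day 5. Of 17 nonsense-mediated decay and exon junction genes, 10 were lower at day 2 and 16 at day 5, and 0 higher, from EIF4A3, the helicase core of the junction complex, at -2.68 to UPF3A at -0.38, and rescaled 9 were lower and 2 higher. On the deposited scale the day 5 medians of these lists, -1.23, -1.81, -1.91 and -1.79, lay between the median of all features and that of the 32 genes. Of all features, 23.2% were lower at day 2 and 69.8% at day 5 on the deposited scale, and 26.9% were lower and 27.5% higher at day 5 after rescaling, and the lists carry no test of their own.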

How the data were processed

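Total RNA of MM1S cells was sequenced in 12 libraries (3 per group), from 200 ng of RNA each. The authors deposited log2(TPM + 1) values for 59276 features named by gene symbol. The submitters' processing notes name FastQC, Trimmomatic, STAR, Salmon and the build hg38, with no versions, roles or order, and the annotation, the strand setting and the treatment of multimapping reads are not given in the sources used here. TPM keeps no read counts, so precision was read from the spread of 3 libraries and no count model applies.

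The limma package (3.58.1, R 4.3.3) was used with 1 mean per group, a mean-variance trend, two-sided tests and Benjamini-Hochberg adjustment over 11939 features within each of 6 contrasts. Fold changes are on the log2(TPM + 1) scale and understate the change of low genes. Exact permutation tests were used for ratios and shares. On simulated data of 11939 features for this fit, 197 of 200 changed genes and 9 unchanged ones were called.

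The 32 genes, the companion lists, the pairs and the tests were chosen with earlier results of these data known. Per-library values are given for the genes with the lowest and highest day 5 change in each class, genes called higher, both genes of pairs whose ratio changed, and the most and least abundant gene. Gene positions and transcript types came from GENCODE 29 on GRCh38 and promoter windows from RefSeq (GRCh38.p14). The treated groups share the untreated libraries. The analysis was repeated without the filter, with a minimum of 5 TPM, with 0.1 as pseudocount, after rescaling, leaving out the 20 most abundant features, without the trend, with pairwise fits and leaving out each library. Figures were drawn with matplotlib 3.10.9.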

Additional observations from a re-analysis of the deposited data

Results flagged for a closer look

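The change at day 5 differed from the change at day 2 in most of the genes, by limma's direct contrast of the day 5 and day 2 libraries on the deposited scale. Of the 32 genes, 30 were lower at day 5 than at day 2 (69.8% of all features), and after rescaling 11 were lower and 2 higher. The 2 genes not called on the deposited scale were HNRNPC and HNRNPH2. Among the genes given by library, the log2 difference, day 5 minus day 2, was -1.63 for SRSF1, -1.39 for SRSF4, -0.75 for SRSF5, -0.73 for SRSF6 and -1.24 for SRSF9. It was -0.77 for TRA2A and -0.83 for TRA2B. In the hnRNP A/B and D class it was -2.06 for HNRNPA1, -1.74 for HNRNPA2B1 and -1.15 for HNRNPA0, and in the F/H class -1.22 for HNRNPH1 and -1.68 for HNRNPH3. The difference was -1.42 for HNRNPL, -0.55 for HNRNPLL and -1.95 for HNRNPM, and in the U class it was -1.55 for HNRNPU and -1.35 for HNRNPUL2. Each of these kept its call on the deposited scale when any 1 library was left out. Rescaling changed several of them. After it, 22 of the 32 genes lay below 0 and 10 above from day 2 to day 5, where the median of all features was -0.07. Of the 10 SR genes, 1 was still called lower, SRSF1 at -0.65. SRSF4 was at -0.48 and not called, and SRSF5 (0.23), TRA2A (0.20) and TRA2B (0.16) changed sides without a call.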

How the results depend on the processing

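The counts of genes lower against untreated moved by less than 1.5 times without the filter, with a minimum of 5 TPM, with 0.1 as pseudocount, on leaving out the 20 most abundant features, without the trend and in pairwise fits. After rescaling the counts of 17 lower at day 2 and 21 lower at day 5 also stayed within 1.5 times. Most other counts moved further: to 20 lower at day 3, with 1 higher at day 3 and 1 at day 5. The steps moved to 10 lower and 2 higher from day 2 to day 3, 0 lower from day 3 to day 5, and 11 lower and 2 higher from day 2 to day 5. Rescaling without H8 or without H12, added after seeing the data, gave 20 lower and 1 higher at day 3 and 1 higher at day 5 in both cases, from day 2 to day 3 11 or 9 lower and 3 or 2 higher, from day 3 to day 5 0 or 1 lower, and from day 2 to day 5 11 or 13 lower and 2 or 3 higher. Pairwise fits called 5 genes lower from day 3 to day 5. Leaving out 1 library at a time gave 24 to 25 genes lower at day 2, 31 at days 3 and 5, 24 to 25 from day 2 to day 3, 30 from day 2 to day 5, and 3 to 19 from day 3 to day 5. Rescaling turned the direction of HNRNPH2 (0.13, 0.79 and 0.82 at days 2, 3 and 5), SRSF5 (0.068 and 0.038 at days 3 and 5), TRA2A (0.048 and 0.0066), HNRNPLL (0.090 and 0.24) and HNRNPC at day 5 (0.35), and without the 20 most abundant features HNRNPH2 was at 0.19 at day 3. The cause was not tested.

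The median change of the 32 genes minus that of all features was -0.76, -1.65 and -1.99 on the 3 days with no filter and -0.52, -0.80 and -0.84 with a TPM minimum of 5. At days 3 and 5 it was -0.85 and -0.89 with a pseudocount of 0.1 and -0.82 and -0.85 after rescaling, and leaving out 1 library gave -0.60 to -0.55, -1.03 to -0.92 and -1.18 to -1.01. The number of pairs with a changed ratio was 4 after rescaling and ranged from 0 to 6 when 1 library was left out, 0 whenever an untreated one was, where 2 libraries are compared with 9, and 3 without H7, H9 or H11. The change in log2 ratio of HNRNPUL1 over HNRNPUL2, -0.01 as reported here, was 0.020 with 0.1 as pseudocount, 0.0053 after rescaling and -0.065 to 0.037 when 1 library was left out. No paired analysis was possible because the labels give the libraries no replicate numbers shared between groups.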

Other observations

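The order of the 32 genes by mean TPM shifted with treatment. From untreated to day 5, TRA2B moved from rank 15 to 8, SRSF7 from 14 to 7 and SRSF5 from 18 to 10, while HNRNPM moved from rank 13 to 20, HNRNPR from 20 to 28 and HNRNPA2B1 from 2 to 6. As a share of the summed TPM of the set, which is free of the library scaling, 17 of 32 genes differed between the 9 treated and the 3 untreated libraries at an adjusted p under 0.05 in the exact permutation test, 9 with a larger and 8 with a smaller share. HNRNPK, which binds C-rich tracts, went from 5.14% ± 0.165 to 6.27% ± 0.050 at day 5, and SRSF5 from 1.57% ± 0.0161 to 3.05% ± 0.184 (SD, n = 3 each, both with a larger share in every treated library and an adjusted p of 0.012 by exact permutation). HNRNPD went from 3.66% ± 0.239 to 1.98% ± 0.349 and HNRNPM from 2.76% ± 0.0293 to 1.51% ± 0.215 (SD, n = 3 each, adjusted p of 0.012 for both by exact permutation). HNRNPA1, the largest single share in all libraries but H10 and H11, where HNRNPC was larger, was at 22.2% ± 0.814 in untreated libraries and 25.6% ± 1.12 at day 2 (SD, n = 3 each), and its day 5 share of 15.5% ± 1.45 was the lowest of the groups.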
